A study of Drosophila melanogaster with 9 samples.

Results

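The genes Nach, Gr98b, mthl4, beat-Ic, Clk and 5-HT1A were followed through mesodermal cells of fly embryos because their signals differed strongly between a jumu deficiency and controls. They were taken with all of their probe sets, which gave 6 of 11982 named genes and 7 of 18769 probe sets, since mthl4 has 2 probe sets and each other gene has 1. The genes were chosen from the log2 signals of the jumu deficiency arrays against the control arrays, so the differences in that comparison, and those against the other mutant, are given as a description with no test. The choice is worded as a change in the jumu deficiency alone, and whether the signals of CHES-1-like null cells were also used in it is not stated. If they were, small differences in those cells were fixed by the choice.

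The cells were GFP-positive cells sorted from dissociated Drosophila melanogaster embryos of stage 11 to early stage 12, with 1 Affymetrix expression array for the total RNA of each sample. In all 9 samples the GAL4 driver twi-GAL4, which is active where the mesodermal regulator Twist is expressed, drove the reporter UAS-2EGFP. The first group of 3 arrays came from Df(3R)Exel6157 homozygotes, which lack a chromosome segment and which the labels call a jumu null, with driver and reporter written on different homologues. The second group of 3 came from homozygotes of the null deletion Df(1)CHES-1-like1, called CHES-1-like null cells here, and the 3 control arrays carried driver and reporter with neither deletion. A deficiency can remove further genes besides jumu, and a sort on this driver also takes any other cell in which the reporter is on. Nothing in the labels states that the arrays of a group came from separate embryo collections, so the p-values rest on array-to-array spread that could be purely technical.

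Values are log2 signals per probe set, so a difference of 1 is a doubling. Probe sets of odorant, gustatory and ionotropic receptor genes, most of which act in sensory neurons, served as a measure of background. Without Gr98b there were 184 of them, whose median signal over the 9 arrays was 4.17 and of whose signals 95% lay at or below 5.29, and a signal up to that bound is called within the background here. The signal of one probe set cannot be set against that of another, and a difference from a group within the background understates the change.

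Both jumu and CHES-1-like encode transcription factors of the Forkhead family, and the 6 genes are spread over unlike functions. Nach encodes a subunit of the degenerin and epithelial sodium channel (DEG/ENaC) family, some of which serve liquid clearance from the trachea. Gr98b encodes a gustatory receptor, and mthl4 a G protein-coupled receptor of the Methuselah-like family. The Beaten path family, to which beat-Ic belongs, consists of immunoglobulin-domain proteins best known from the adhesion of motor axons, where the related protein Side on muscle acts as a ligand of Beat-Ia. Clk encodes a transcription factor that pairs with the product of cyc and drives the circadian clock by activating per, tim, vri, Pdp1 and cwo. 5-HT1A encodes a serotonin receptor that lowers cyclic AMP.

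Nach had log2 signals of 11.35, 11.15 and 11.28 in the jumu deficiency, against 4.18, 4.03 and 4.20 in CHES-1-like null cells and 4.02, 4.01 and 4.04 in controls. Every jumu deficiency array was bright, and the other 6 arrays all lay within the background. The difference of the jumu deficiency from controls was 7.24 ± 0.06 (SE), the largest increase of all probe sets, and from CHES-1-like null cells it was 7.12 ± 0.06. In a bulk sample of sorted cells, more cells of a type and more RNA per cell cannot be told apart.

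Gr98b read 9.23, 9.06 and 9.27 in the jumu deficiency, against 3.69, 3.84 and 3.87 in CHES-1-like null cells and 3.82, 3.79 and 3.74 in controls. The gap between the jumu deficiency and the other arrays was many times the spread within any group. The difference from controls was 5.40 ± 0.07 (SE), the fourth largest increase.

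The 2 probe sets of mthl4 gave the same picture. The first read 9.20, 9.23 and 9.28 in the jumu deficiency, against 3.99, 4.04 and 3.99 in CHES-1-like null cells and 3.91, 4.0 and 4.08 in controls. The second read 9.43, 9.21 and 9.16, against 3.48, 3.49 and 3.51 in CHES-1-like null cells and 3.67, 3.47 and 3.37 in controls. Both probe sets were thus within the background in 6 arrays and well above it in the other 3. Their differences between jumu deficiency and control were 5.24 ± 0.05 and 5.76 ± 0.09 (SE).

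beat-Ic read 7.85, 8.0 and 7.64 in the jumu deficiency, against 3.43, 3.44 and 3.26 in CHES-1-like null cells and 3.42, 3.45 and 3.29 in controls. None of the 184 chemoreceptor probe sets had a lower mean than beat-Ic in the control or CHES-1-like null arrays. The difference between the jumu deficiency and controls was 4.44 ± 0.09 (SE).

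5-HT1A was the weakest member. It read 5.05, 5.33 and 5.54 in the jumu deficiency, against 3.93, 3.72 and 3.62 in CHES-1-like null cells and 3.99, 3.88 and 3.82 in controls. The jumu deficiency arrays were the highest, yet 1 of them lay below the bound of 5.29 and their mean of 5.31 ± 0.25 (SD, n = 3) lay just above it. With the bound taken in the jumu deficiency arrays themselves, 5.40, that mean also falls within the background. The difference from controls was 1.41 ± 0.12 (SE), which was 145th among the increases.

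Clk went the other way. It read 3.81, 4.14 and 3.83 in the jumu deficiency, against 8.04, 7.98 and 8.07 in CHES-1-like null cells and 8.94, 8.86 and 8.93 in controls. The 3 groups did not overlap, and only the jumu deficiency arrays lay within the background. The difference between the jumu deficiency and controls was −4.99 ± 0.08 (SE), the fifth largest decrease, which leaves at most 3.16% of the control signal. Against CHES-1-like null cells the difference was −4.11 ± 0.08. Between the mutants 34.4% of all probe sets passed the threshold and 43.6% had arrays that did not overlap. The probe sets of Clk and 5-HT1A carry the suffix that Affymetrix gives to probes which may match several transcripts, and whether other transcripts contribute was not tested.

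**Figure D1:**
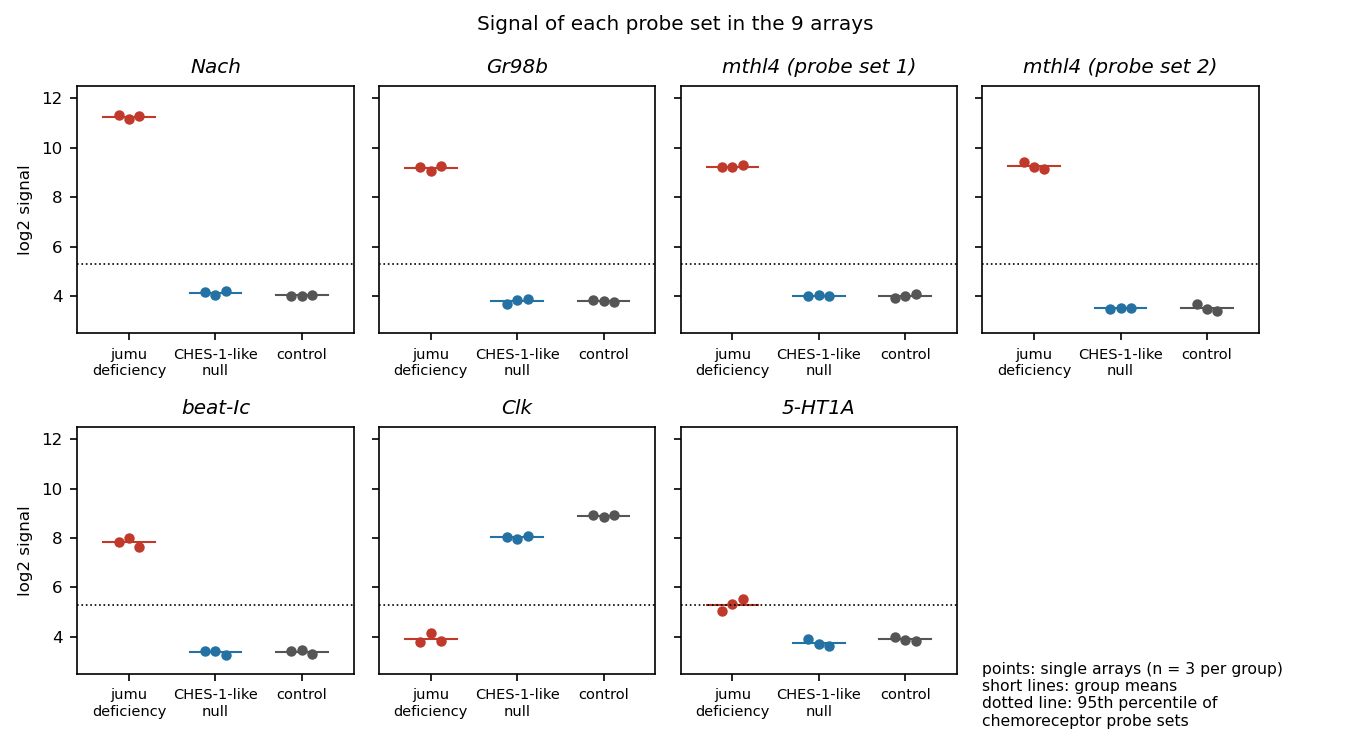
Log2 signal (vertical axis) of the 7 probe sets in each array, with jumu deficiency, CHES-1-like null and control arrays from left to right, 3 points per group and a short line at the group mean. The dotted line is the chemoreceptor bound of 5.29. The jumu deficiency arrays sit between 7.64 and 11.35 for Nach, Gr98b, mthl4 and beat-Ic and between 3.81 and 4.14 for Clk, and those of 5-HT1A straddle the line.

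In the jumu deficiency the arrays of all 7 probe sets lay apart from the controls, as the choice of the genes requires, and 46.8% of all probe sets did the same. Among all probe sets, 14 were at least 16-fold higher, of which 5 belong to the 6 genes, and 10 were at least 16-fold lower, of which 1 is Clk. The smallest difference among them, that of 5-HT1A at 1.41, has the genes CG10859 at −1.42 and CG9411 at 1.41 directly beside it in size, and both are no members. A single threshold of size therefore does not give these 6 genes.

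In CHES-1-like null cells, Clk changed as well. Its signal of 8.03 ± 0.05 (SD, n = 3) in that mutant stood against 8.91 ± 0.04 in controls. The difference was −0.88 ± 0.08 (SE, limma adjusted p = 4.11e-05), which leaves 54.3% of the control signal, and 3 of 3 arrays lay below every control array. For Clk the name of a change in the jumu deficiency alone thus does not hold. Clk was the 1 probe set of the 7 that passed the threshold of 0.05 in this comparison, where 29% of all probe sets passed and 42.7% had arrays apart from the controls. The control arrays here are the ones used to choose the genes, and the other 6 results support nothing if the choice also used these cells.

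The other 6 probe sets did not pass in CHES-1-like null cells, and their intervals were narrow beside their differences in the jumu deficiency. Nach differed from controls by 0.12 with a 95% interval of −0.02 to 0.26 (limma adjusted p = 0.210). Gr98b differed by 0.02 with an interval of −0.14 to 0.17, and beat-Ic by −0.01 with an interval of −0.22 to 0.20. The intervals of mthl4 ran from −0.11 to 0.12 at the first probe set and from −0.21 to 0.19 at the second. For 5-HT1A the difference was −0.14 with an interval of −0.42 to 0.13 (adjusted p = 0.435). All of these probe sets were within the background in both groups, where a fall or a small rise of the transcript would move the signal little.

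**Figure D2:**
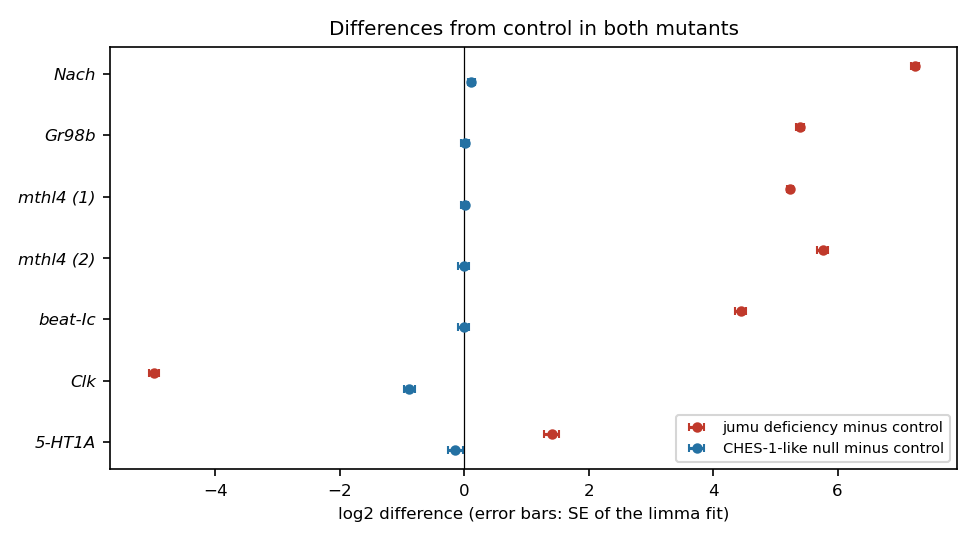
Log2 difference from control (horizontal axis) for each probe set, in the jumu deficiency and in CHES-1-like null cells, with the SE of the limma fit as error bars. In the jumu deficiency 6 probe sets lie between 1.41 and 7.24 and Clk at −4.99, and in CHES-1-like null cells Clk lies at −0.88 and the others between −0.14 and 0.12.

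The partners and targets of Clk were examined in both mutants, because Clk activates several of them. Of 25 listed clock genes 18 were measured. Of the 17 besides Clk, 2 rose, 4 fell and 11 did not pass in the jumu deficiency, where 38.6% of all genes passed, 17.6% being higher and 21% lower. Their median difference was 0.06, against 0.01 over all genes.

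Pdp1, whose product activates Clk and is itself a target of Clk, had log2 signals of 8.38, 8.66 and 8.18 in the jumu deficiency, against 9.35, 9.35 and 9.44 in CHES-1-like null cells and 9.92, 9.90 and 10.00 in controls. It was lowest in the jumu deficiency and intermediate in CHES-1-like null cells, with no overlap between the groups, which is the order seen for Clk. The Pdp1 probe set carries the same suffix as that of Clk. Which Pdp1 transcripts it reads, and whether they are those regulated by Clk, was not tested. The difference of Pdp1 from controls was −1.54 ± 0.10 (SE, limma adjusted p = 3.35e-06) in the jumu deficiency and −0.57 ± 0.10 (adjusted p = 0.00225) in CHES-1-like null cells.

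per, which encodes a repressor of the clock, fell by 0.37 ± 0.05 (SE) in the jumu deficiency (limma adjusted p = 0.000557), with 5.04, 4.98 and 4.95 against 5.27, 5.36 and 5.44 in controls. These signals lie at the border of the background. In CHES-1-like null cells per differed by −0.03 (adjusted p = 0.688). The partner gene cyc differed by 0.06 in the jumu deficiency (adjusted p = 0.582), and it too lay close to the background, at 5.47 ± 0.13 against 5.41 ± 0.06 in controls (SD, n = 3).

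The targets tim, vri and cwo did not pass in the jumu deficiency at their brightest probe sets. vri, a repressor of Clk, was well above the background and differed by 0.17 (limma adjusted p = 0.107). tim differed by 0.15 (adjusted p = 0.206). cwo, a repressor of Clk targets, differed by −0.14 (adjusted p = 0.276) at its brightest probe set and by 0.42 ± 0.07 (SE, adjusted p = 0.00119) at its other one, so its probe sets disagree. Hence among these targets of Clk, Pdp1 and per fell, and vri, tim and cwo did not pass at their brightest probe sets.

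Further clock genes passed as well. The kinase gene dco (doubletime), whose product phosphorylates the period protein, fell by 0.33 ± 0.04 (SE) in the jumu deficiency (limma adjusted p = 0.000265) and by 0.17 ± 0.04 in CHES-1-like null cells (adjusted p = 0.0127, and 0.0505 without control replicate 2). Pdfr, the receptor gene of the clock neuropeptide PDF, rose by 0.77 ± 0.05 and 0.60 ± 0.05 in the same mutants (adjusted p = 3.52e-06 and 2.27e-05). Of the 17 clock genes, 1 rose and 2 fell in CHES-1-like null cells, against 17.1% and 18.6% of all genes, or 35.7% in both directions. This list held 6 calls in that mutant with a variance trend and robust estimation, against 3.

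**Figure D3:**
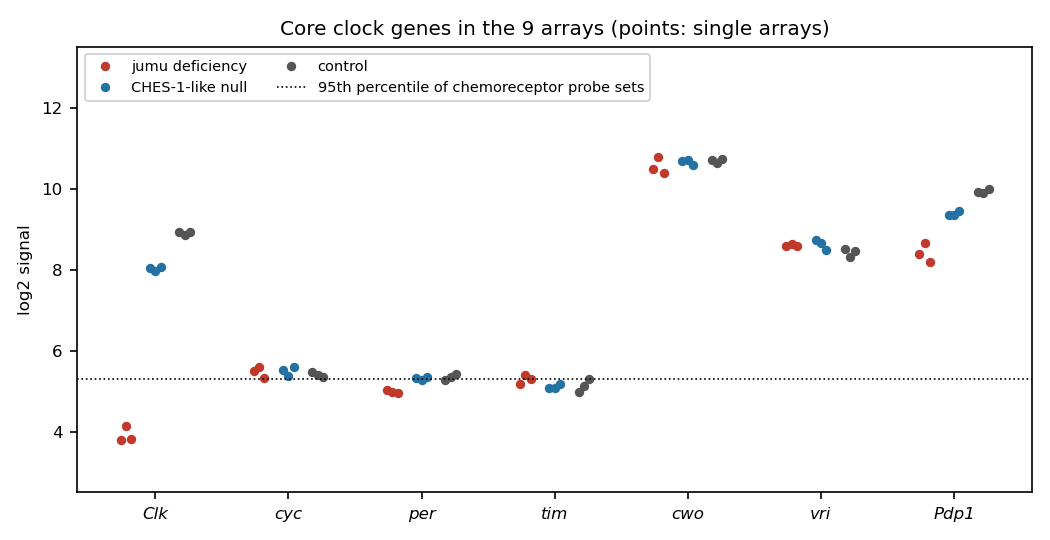
Log2 signal (vertical axis) of Clk, its partner cyc and the target genes per, tim, cwo, vri and Pdp1 in each array, at the brightest probe set of each gene, with jumu deficiency, CHES-1-like null and control arrays from left to right. Clk and Pdp1 are lowest in the jumu deficiency and intermediate in CHES-1-like null cells, while cyc, per and tim lie near the dotted chemoreceptor bound of 5.29 in all arrays.

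Among the gustatory receptor genes, 56 were measured. Of the 55 besides Gr98b, 5 rose, 4 fell and 46 did not pass in the jumu deficiency, which is 16.4% called against 38.6% of all genes. Of these 55, 53 had means within the background, against 36.6% of all genes. These genes are among the chemoreceptors that set the bound, so this count follows largely from the definition and is no result. The median difference was 0.02. Clear of the rest were the genes that follow Gr98b along chromosome arm 3R, Gr98c and Gr98d.

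Gr98d read 6.26, 6.05 and 6.40 in the jumu deficiency, against 3.93, 4.10 and 4.04 in CHES-1-like null cells and 3.92, 4.06 and 3.75 in controls. Gr98c read 5.03, 5.44 and 5.75 in the jumu deficiency, against 3.98, 3.95 and 3.67 in CHES-1-like null cells and 3.87, 3.77 and 3.66 in controls. Both were highest in the jumu deficiency arrays, with no overlap with the other groups, as was Gr98b. Gr98d rose by 2.33 ± 0.10 (SE, limma adjusted p = 2.06e-07) and Gr98c by 1.64 ± 0.16 (adjusted p = 5.24e-05), whereas in CHES-1-like null cells they differed by 0.12 (adjusted p = 0.454) and 0.10 (adjusted p = 0.696). Related receptors can share probe sequence, and whether Gr98b transcripts bind the probes of Gr98c and Gr98d was not tested.

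Gr98a, the other member of this group of genes, lies on the opposite side of Gr98b and differed by −0.06 (limma adjusted p = 0.751), with 3.91 ± 0.20 in the jumu deficiency and 3.96 ± 0.15 in controls (SD, n = 3). The receptor genes Gr93b and Gr93c were lower in both mutants. They fell by 0.78 ± 0.10 and 0.82 ± 0.07 (SE) in the jumu deficiency and by 0.49 ± 0.10 and 0.52 ± 0.07 in CHES-1-like null cells (adjusted p at most 0.00538). Of the 55 genes, 3 rose and 3 fell in CHES-1-like null cells, where 35.7% of all genes passed.

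In the Methuselah family 15 genes were measured. Of the 14 besides mthl4, 7 rose, 1 fell and 6 did not pass in the jumu deficiency, against 17.6% higher and 21% lower over all genes, with a median difference of 0.21 against 0.01 over all genes. With each array centred on its median, 4 of the 14 passed in place of 8.

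The gene mthl8, on chromosome arm 3L and so apart from mthl4 on arm 2R, also rose in the jumu deficiency. It read 8.43, 8.45 and 8.68 in the jumu deficiency, against 4.76, 4.77 and 4.72 in CHES-1-like null cells and 4.89, 4.66 and 4.60 in controls. As for mthl4, the signal was within the background in all 6 arrays outside the jumu deficiency. The difference from controls was 3.80 ± 0.09 (SE, limma adjusted p = 3.67e-09), and it was 2.92 ± 0.12 (adjusted p = 1.64e-07) at a second probe set. In CHES-1-like null cells the brighter probe set of mthl8 differed by 0.03 (adjusted p = 0.837).

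Other members of the family moved less. mth, known for its effect on life span, rose by 0.42 ± 0.04 (SE, limma adjusted p = 8.51e-05) in the jumu deficiency and by 0.25 ± 0.04 in CHES-1-like null cells (adjusted p = 0.00237). mthl2 rose by 0.49 ± 0.11 in the jumu deficiency (adjusted p = 0.00812), with both means within the background. mthl15 fell by 0.45 ± 0.10 in the jumu deficiency and by 0.94 ± 0.10 in CHES-1-like null cells (adjusted p = 0.00596 and 7.78e-05). Of the 14 genes, 2 rose and 1 fell in CHES-1-like null cells, against 17.1% and 18.6% of all genes.

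Of the 28 other DEG/ENaC genes none rose and 4 fell in the jumu deficiency by limma at an adjusted p of 0.05, and 2 were higher at an unadjusted p of 0.05. The called share was 14.3%, against 38.6% of all genes. Of these 28, 23 had means within the background, and the median difference was −0.01. ppk28, a water-sensing channel of taste neurons, differed by −0.67 ± 0.14 (SE, adjusted p = 0.00459), and ppk23, a pheromone-sensing channel, by −0.39 ± 0.07 (adjusted p = 0.00298). ppk20 differed by −0.35 ± 0.10 (adjusted p = 0.0256), which was lost with the replicate number as a block (adjusted p = 0.0508) and without jumu deficiency replicate 1 or 2 or control replicate 1 or 3 (adjusted p of 0.0652 to 0.0861).

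The embryonic channel gene rpk passed in both mutants, in opposite directions. It read 8.55 ± 0.02 (SD, n = 3) in the jumu deficiency, 9.59 ± 0.05 in CHES-1-like null cells and 8.67 ± 0.02 in controls. Its differences from controls were −0.12 ± 0.04 (SE, limma adjusted p = 0.0476) and 0.92 ± 0.04 (adjusted p = 5.74e-07). The call in the jumu deficiency was lost with quantile normalization, with the replicate number as a block and without any 1 of the jumu deficiency or control arrays (adjusted p of 0.0697 to 0.218). It was also lost without CHES-1-like null replicate 2 (limma adjusted p = 0.0548). In CHES-1-like null cells 4 of the 28 rose, among them ppk19 by 0.42 ± 0.07, and 1 fell, against 17.1% and 18.6% of all genes. Centring each array on its median gave 7 calls among the 28 in the jumu deficiency, and array weights gave 8, against 4.

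The beat and side family had 21 measured genes. Of the 20 besides beat-Ic, 4 rose, 3 fell and 13 did not pass in the jumu deficiency, a called share of 35% against 38.6% of all genes, and the median difference was 0.05. beat-Ia, the secreted anti-adhesive founder of the family, lies 4 measured genes away from beat-Ic on arm 2L and moved the opposite way. It fell by 0.91 ± 0.17 (SE, limma adjusted p = 0.00234), with 4.73 ± 0.05 in the jumu deficiency against 5.64 ± 0.25 in controls (SD, n = 3).

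Members of the family on arm 3R changed in both directions in the jumu deficiency. beat-IIb fell by 0.60 ± 0.06 (SE, limma adjusted p = 3.45e-05), and fell by 1.02 ± 0.06 in CHES-1-like null cells (adjusted p = 1.62e-06). side-VII rose by 0.36 ± 0.07 in the jumu deficiency (adjusted p = 0.00418). beat-IIIc on arm 2L rose by 0.24 ± 0.05 there at its brighter probe set (adjusted p = 0.00553), which a second probe set did not follow (0.06, adjusted p = 0.641). It fell by 0.38 ± 0.05 in CHES-1-like null cells. At their brightest probe sets none of the 20 rose there, also at an unadjusted limma p of 0.05, and 4 fell, against 17.1% and 18.6% of all genes. A dimmer probe set of side-II was higher there by 0.22 (limma adjusted p = 0.0171), which the other probe sets of that gene did not follow.

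Serotonin signalling genes gave 10 measured genes besides 5-HT1A, of which 3 rose, 2 fell and 5 did not pass in the jumu deficiency, a called share of 50% against 38.6% of all genes. 5-HT7 and 5-HT2A, further serotonin receptor genes, rose by 0.27 ± 0.06 and 0.32 ± 0.08 (SE, limma adjusted p = 0.00609 and 0.0155), and all their group means lay within the background. The call of 5-HT2A was lost without replicate 1 or 3 of the jumu deficiency (adjusted p = 0.0595 and 0.0578) and without control replicate 2 (0.0577). 5-HT1B, which encodes a further serotonin receptor that lowers cyclic AMP and lies 4 measured genes away, differed by 0.07 (adjusted p = 0.417). Downstream, the adenylyl cyclase gene rut fell by 0.52 ± 0.05 in the jumu deficiency and by 0.54 ± 0.05 in CHES-1-like null cells, and the G protein gene Galphao rose by 0.21 ± 0.04 in the jumu deficiency (adjusted p = 0.00216). The G protein gene Galphai rose by 0.32 ± 0.04 in CHES-1-like null cells (adjusted p = 0.000166), where 3 of the 10 rose and 1 fell, against 17.1% and 18.6% of all genes.

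**Figure D4:**
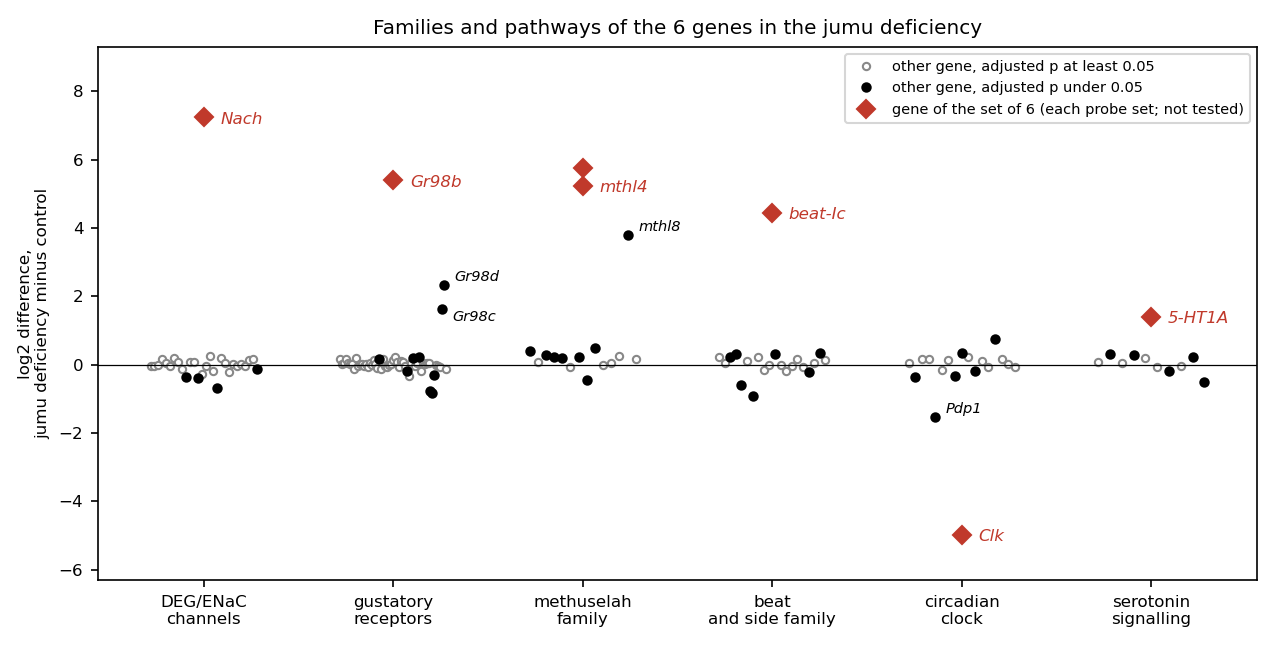
Log2 difference between the jumu deficiency and controls (vertical axis) for every measured gene of the families and pathways to which the 6 genes belong, at the brightest probe set of each gene, with filled points where the limma adjusted p was under 0.05. Diamonds mark the 6 genes themselves at each probe set. Most relatives lie near 0, and mthl8 at 3.80, Gr98d at 2.33, Gr98c at 1.64 and Pdp1 at −1.54 stand off.

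The genes on either side of each member were compared to see how far along the chromosome a change extends. Nach, mthl4 and 5-HT1A lie on arm 2R, beat-Ic on arm 2L, Clk on arm 3L and Gr98b on arm 3R, which is also the arm of jumu and of the deficiency. Of the 60 genes made up of the 5 nearest measured ones on each side, 19 rose and 11 fell in the jumu deficiency, against 17.6% higher and 21% lower among all genes. Their differences ran from −1.57 to 3.29. No neighbour differed by as much as the member beside it, which was likely from the start because the members were chosen for large differences. Of the 60, 10 rose and 5 fell in CHES-1-like null cells, against 17.1% and 18.6% of all genes.

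Amyrel, the neighbour of Nach on the side of lower coordinates, encodes an amylase-related enzyme and read 8.17, 7.98 and 8.03 in the jumu deficiency, against 4.89, 4.53 and 4.95 in CHES-1-like null cells and 4.66, 4.65 and 5.00 in controls. It was bright in the jumu deficiency and within the background elsewhere, as Nach was. Of the 10 neighbours of Nach 5 rose and 1 fell. Amyrel rose by 3.29 ± 0.13 (SE, limma adjusted p = 9.04e-08). The neighbour on the other side, Picot, rose by 0.42 ± 0.11 (adjusted p = 0.0164), with both means within the background and adjusted p = 0.0544 without control replicate 3. Idgf6, a chitinase-like gene on the list of haemocyte and fat body markers, is the fourth on that side and was named after its values were seen, and it rose by 1.27 ± 0.04 in the jumu deficiency and by 0.52 ± 0.04 in CHES-1-like null cells (adjusted p = 3.49e-08 and 1.55e-05).

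Some further neighbours also differed by more than 1 on the log2 scale. The RNA-binding protein gene BicC, the third measured gene on the side of higher coordinates from beat-Ic and named after its values were seen, read 6.66, 6.72 and 6.76 in the jumu deficiency, against 4.57, 4.81 and 4.83 in CHES-1-like null cells and 4.49, 4.60 and 4.80 in controls. It rose by 2.08 ± 0.09 (SE, limma adjusted p = 1.9e-07), while the genes directly beside beat-Ic, CG10839 and CG34167, differed by 0.20 and 0.18 and lost their calls with each array centred on its median (adjusted p = 0.0678 and 0.0547). CG12885, directly beside Gr98b on the side opposite to Gr98c, rose in each mutant, by 2.76 ± 0.04 in jumu deficiency cells and by 2.36 ± 0.04 in CHES-1-like null cells (adjusted p = 3.25e-10 and 6.71e-09). Thus Gr98b had a neighbour that moved in both mutants and others that were higher in the jumu deficiency and did not pass in CHES-1-like null cells.

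Around Clk, 4 of 10 neighbours fell and 1 rose in the jumu deficiency. Pdp1, described above, is the third measured gene on the side of higher coordinates. Snmp2, on the other side and named after its values were seen, fell by 1.57 ± 0.13 (SE) in the jumu deficiency and by 1.70 ± 0.13 in CHES-1-like null cells. The genes directly beside Clk did not pass, with CG7409 at 0.09 (limma adjusted p = 0.349) and CG32371 at −0.12 (adjusted p = 0.140). CG32371 lies within the background and passed with each array centred on its median (adjusted p = 0.0284).

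Around mthl4 no neighbour differed by more than 0.39, and 3 of 10 rose and 2 fell. The genes directly beside mthl4, CG18467 and CG10764, differed by −0.05 and 0.19 (limma adjusted p = 0.714 and 0.159). Beside 5-HT1A, 3 of 10 neighbours rose and 2 fell, and the nearest, CG15109 and Ir56a, differed by −0.16 (adjusted p = 0.140) and −0.58 ± 0.09 (SE, adjusted p = 0.00109).

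**Figure D5:**
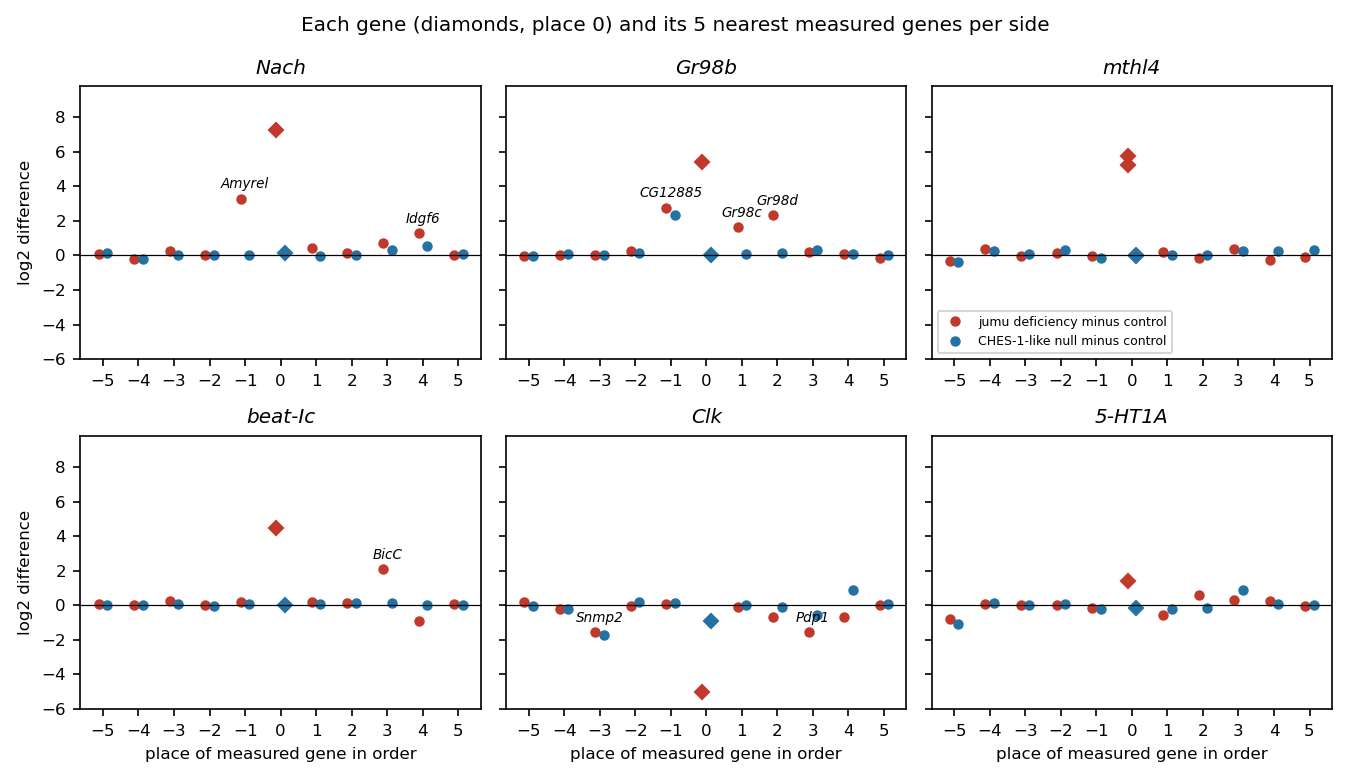
Log2 difference from control (vertical axis) of each of the 6 genes (diamonds at place 0) and of the 5 nearest measured genes on each side (points, ordered along the chromosome), in the jumu deficiency and in CHES-1-like null cells. Amyrel at 3.29, CG12885 at 2.76, Gr98d at 2.33 and BicC at 2.08 are the highest neighbours in the jumu deficiency, and no neighbour of mthl4 differs by more than 0.39.

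The genes whose pattern was most like that of each member were found by the Euclidean distance over the 9 arrays of the log2 signal minus the control mean. This distance depends largely on the size of the difference in the jumu deficiency, from which the members were chosen. Nearness between members therefore follows largely from that choice and is no separate result. For Gr98b the nearest was mthl4 at a distance of 0.38, followed by mwh, a gene of wing hair formation, at 0.78 and CG31176 at 1.39. With Gr98b in place of mthl4, these genes were also nearest to mthl4 at both of its probe sets. The match of mwh, which is also on the list of epidermal markers, was found at 1 of its 2 probe sets, and the other lay within the background in every group and differed by −0.01 in the jumu deficiency. Nach, whose increase of 7.24 was the largest of all, stood farther from every gene, with mthl4 at 2.59, Gr98b at 3.20 and mwh at 3.21.

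For beat-Ic the nearest genes were CG31601 at 0.64, teq, which encodes a secreted protease, at 0.85 and CG31176 at 0.93. CG31601 differed from controls by 4.09 in the jumu deficiency and by 0.01 in CHES-1-like null cells. The probe sets of teq disagree: the matched one differed by 4.02 in the jumu deficiency and by 0.02 in CHES-1-like null cells, and the other, of higher mean signal, by −0.35 and −0.83. Clk had no close match, with CG15128 at 1.47, the adenylyl cyclase gene Ac76E at 2.63 and thw at 3.22. CG15128 differed by −4.33 in the jumu deficiency and by −0.37 in CHES-1-like null cells, whereas Ac76E differed by −4.33 and −2.21. For 5-HT1A the nearest were CG13108 at 0.44, CG46491 at 0.46 and Glt, a glycoprotein gene of the basement membrane, at 0.47. Glt is also on the list of haemocyte and fat body markers.

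Several facts of the whole series bear on these values. The jumu probe set fell by 2.39 ± 0.07 (SE) in the jumu deficiency and stayed above the background at 7.99 to 8.21, and whether it lies inside the deleted segment was not tested. The brighter CHES-1-like probe set fell by 7.97 ± 0.13 in its null. The other CHES-1-like probe set fell by 1.80 ± 0.20 there and stayed above the background at a mean of 6.32. In the jumu deficiency the brighter CHES-1-like probe set fell by 0.61 ± 0.13 (limma adjusted p = 0.00557), and the other differed by −0.53 (adjusted p = 0.0759). In the jumu deficiency 32.2% of all probe sets passed, of which 46.1% were higher, or 31.4% with each array centred on its median. The marker counts that follow stand against 17.6% of all genes higher and 21% lower. A summed signal adds the linear signals of a list, so the brightest probe sets weigh most in it. The genes grh, pio, serp, verm, srp and fkh are each on several lists, so the lists are not independent of each other. Of 26 listed mesodermal markers 22 were measured, and Mef2, tin, how and Mhc were not. Mesodermal markers were present, twi at 9.86, 9.53 and 9.68 in the jumu deficiency, CHES-1-like null cells and controls. Of the 22, 20 were above the background in some group, lbe and H15 being the exceptions. Of these 22, 13 rose and 2 fell in the jumu deficiency, at a log2 summed signal of 14.73 to 14.75 against 14.69 to 14.73 in controls. In the jumu deficiency 14 of 22 haemocyte and fat body markers rose and none fell by limma, also at an unadjusted p of 0.05, with a log2 summed signal of 16.48 to 16.51 against 16.13 to 16.14 in controls, while eater, Lsp2 and Fbp1 were within the background.

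Of 21 neural markers 4 rose and 9 fell in the jumu deficiency, with a summed signal of 13.72 to 13.96 against 14.04 to 14.06 in controls, and para, ChAT and VGlut were within the background. Of 19 epidermal markers 2 rose, among them mwh by 5.42, and 6 fell, at 13.78 to 13.81 against 13.84 to 13.86, with sha within the background. Of 14 trachea and salivary gland markers 2 rose and 6 fell, at 14.03 to 14.16 against 14.26 to 14.27, with Sgs3 within the background. Most of that sum is the signal of rib, at 13.94 in controls, which differed by −0.16, whereas btl rose by 1.73. Of 9 endoderm markers 2 rose and 3 fell, at 13.61 to 13.68 against 13.65 to 13.68. Of 12 germ cell markers none rose by limma, also at an unadjusted p of 0.05, and 7 fell, at 12.12 to 12.17 against 12.37 to 12.38, with vas and osk within the background.

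On the array controls, the 3′ signal of actin exceeded the 5′ signal by 1.26 ± 0.03 (SD, n = 3) in the jumu deficiency, 0.94 ± 0.06 in CHES-1-like null cells and 1.04 ± 0.01 in controls. For eIF-4a the excess was 1.35 ± 0.03 in the jumu deficiency, 1.15 ± 0.05 in CHES-1-like null cells and 1.07 ± 0.07 in controls. For both transcripts it was largest in the jumu deficiency, whose arrays did not overlap with those of the other groups. The bearing of this on the 6 genes was not tested. The order of CHES-1-like null cells and controls differs between the transcripts. In CHES-1-like null cells, where Clk fell, 13 of 19 epidermal markers rose and 1 fell, with a summed signal of 14.32 to 14.39 against 13.84 to 13.86 in controls. Of 22 mesodermal markers 5 rose and 7 fell in these cells, at 14.49 to 14.54 against 14.69 to 14.73. Those that rose were lbl, Doc1, Doc3, pnr and dpp. Those that fell were htl, hbs, sns, Hand, svp, lmd and kirre. Among the other lists in these cells, 10 of 14 trachea and salivary gland markers rose and 1 fell, 9 of 21 neural markers rose and 2 fell, 10 of 22 haemocyte and fat body markers rose and 4 fell, 5 of 9 endoderm markers rose and none fell by limma, also at an unadjusted p of 0.05, and 5 of 12 germ cell markers rose and 2 fell. Over all genes 17.1% rose and 18.6% fell there. The part of these shifts in the signals of the 6 genes was not tested.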

How the data were processed

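The deposited table holds log2 signals per probe set, 1 biotin-labelled array per sample. That they are log2 is inferred from their range, 2.99 to 14.89. The array medians of 5.41 to 5.50 are close, but they do not establish that the authors normalized between arrays. Per the submitters' processing notes the R package affy was used; its version is not given in the sources used here, nor are background correction and summary method. No depth exists for arrays, and their number limits the precision.

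After removing 183 array controls, 18769 probe sets were fitted by group over all 9 arrays by lmFit and eBayes of limma 3.58.1 (R 4.3.3, 6 residual degrees of freedom), with Benjamini-Hochberg adjustment over all of them and a threshold of 0.05. In data simulated for the jumu deficiency against controls, 99.5% of 200 probe sets changed by 1 on the log2 scale were recovered, with 9 false calls. The simulated noise was independent between arrays, at the spread of each probe set within groups. It therefore checks only that the fit runs correctly, and cannot show how effects shared by the arrays of a group act on the calls. The platform annotation names 1 gene for 13647 probe sets, several for 402, and leaves 4720 unnamed here. Symbols and gene order come from RefSeq Release 6 plus ISO1 MT. A gene other than the 6 is represented by its probe set of highest mean, except in the search for similar patterns, which ran over all probe sets.

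The 6 genes and the lists were chosen with earlier results of these data known. Genes named are the 6, jumu, up to 4 genes of smallest p per list in the jumu deficiency and 2 in CHES-1-like null cells, the nearest measured neighbours, and the 3 genes of most similar pattern per probe set. Gr98a, 5-HT1B, the core clock genes, and markers such as twi were added for their role. Alternatives were quantile normalization, centring, leaving out the lower 40% of probe sets, the replicate number as a block, only the groups compared, a variance trend, array weights, a threshold of 0.01 and leaving out each array. Deviations of same-numbered arrays had weak correlations of mixed sign (−0.14 to 0.15), which does not settle whether the numbers pair the arrays. The planned search of promoters was not made, as sequences were not used here.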

Additional observations from a re-analysis of the deposited data

How the results depend on the processing

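All 7 probe sets kept their direction in the jumu deficiency, and moved by less than the larger of the SDs between replicates of the groups compared, under each alternative in which they were fitted; 5-HT1A and beat-Ic could not be fitted without the lower 40% of probe sets, which leaves them out. The difference of Clk in CHES-1-like null cells stayed between −0.91 and −0.85 (limma adjusted p at most 0.000372), and no other member passed there. Whether the replicate numbers pair the arrays is not known. With the replicate number as a block, 5582, 5005 and 6085 probe sets passed in the jumu deficiency, in CHES-1-like null cells and between the mutants, against 6035, 5442 and 6464. Leaving out 1 array gave 4952 to 6477, 4493 to 5484 and 5672 to 6367.

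Counts within lists are small and moved more; the cause was not tested. In the jumu deficiency, leaving out 1 array gave 5 to 7 clock, 3 to 5 serotonin, 2 to 6 DEG/ENaC, 4 to 9 gustatory, 6 to 9 Methuselah and 4 to 8 beat and side genes, against 6, 5, 4, 9, 8 and 7. In CHES-1-like null cells these were 2 to 4, 2 to 3, 4 to 6, 2 to 6, 2 to 4 and 3 to 5, against 3, 4, 5, 6, 3 and 4. Without the lower 40% of probe sets, which leaves fewer genes tested, 3 serotonin, 3 gustatory and 5 Methuselah genes passed in the jumu deficiency and 3 DEG/ENaC genes in CHES-1-like null cells. At a threshold of 0.01 these were 3 serotonin, 2 DEG/ENaC, 4 gustatory, 4 Methuselah and 4 beat and side genes in the jumu deficiency, and 2 serotonin and 2 gustatory genes in CHES-1-like null cells. Centring gave 7 DEG/ENaC and 4 Methuselah genes in the jumu deficiency and 2 serotonin genes in CHES-1-like null cells. The block gave 2 DEG/ENaC genes in the jumu deficiency and 2 serotonin genes in CHES-1-like null cells, array weights gave 8 DEG/ENaC genes, and the variance trend 6 clock genes in CHES-1-like null cells. Signals within the background limit what changes could be seen.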
